A study of Mus musculus with 4 samples.

Results

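The transcription factor Nrf2 (gene Nfe2l2), its inhibitor Keap1 and 8 antioxidant genes that Nrf2 is known to activate (Gclc, Gclm, Slc7a11, Txnrd1, Srxn1, Gpx2, Nqo1 and Hmox1) were followed in mouse colonic organoids (colonoids) with and without butyrate. The genes were chosen by name, with earlier results of these data known, and all 10 were found among the 36144 gene names of the count table. Bulk RNA-seq with poly-A selection was carried out on 4 libraries, 1 for each condition: untreated colonoids at 48 h, colonoids given 2 mM sodium butyrate at 48 h, untreated colonoids at 72 h, and colonoids given 2 mM sodium butyrate at 72 h. Per the study's legend, 48 h and 72 h are lengths of butyrate treatment, and the labels give day 2 and day 3. All were at passage 3 and had been established from the colon of a male mouse aged 24 weeks. The labels give the genotype as WT, whereas the study's legend describes the line as Hes1-GFP from a single mouse, so that the libraries are cultures of 1 line and not separate animals. Every culture, untreated ones included, was kept in medium with EGF, Noggin, R-spondin, the GSK3 inhibitor CHIR99021 and the ROCK inhibitor Y-27632.

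In unstressed cells the Keap1 protein holds Nrf2 in the cytoplasm and, with the ubiquitin ligase scaffold Cul3, marks it for degradation. Electrophiles and oxidants modify cysteines of Keap1, after which Nrf2 accumulates, enters the nucleus, pairs with a small Maf protein and binds antioxidant response elements near its target genes. Because this control acts mainly on the protein, transcript levels of Nfe2l2 and Keap1 do not report Nrf2 activity, and no protein was measured here. The colonic epithelium lives beside a dense microbiota, and butyrate made by these bacteria is both a fuel of colonocytes and an inhibitor of histone deacetylases.

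The libraries held between 20790225 and 24207840 counts, of which the 10 genes took 0.216% (untreated) and 0.286% (butyrate) at 48 h and, in the same order, 0.230% and 0.239% at 72 h. Genes of the mitochondrial genome took 14.1% to 18.4%. All 8 epithelial markers were detected in all libraries, with summed normalised counts between 119193 and 130983, whereas those of 8 stromal markers were between 197 and 255 and those of 9 immune markers between 736 and 1430. The fibroblast marker Col3a1, the macrophage marker Adgre1 and the glial markers S100b and Sox10 were at 0 in every library. With 1 library for each condition there was no replicate error, and no test and no p-value could be given. Intervals in brackets are 95% intervals that cover counting error only. A change is a log2 fold change on DESeq2-normalised counts with a pseudocount of 1. As a measure of size, 1.5-fold was used, which is 0.585 on the log2 scale, and counts of the 10 genes are set beside the same share of the 11652 genes whose normalised counts averaged 50 or more. Fewer cells of a type and less RNA per cell cannot be told apart in bulk libraries.

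Promoter stretches are shown for the genes in which the letters of known motifs were found. RefSeq windows (GRCm38.p6) from 250 bases before to 50 bases after each start were read for 8 of the genes in 10 windows, with no entry used for Gclc and Hmox1. The antioxidant response element core TGACNNNGC, searched on both strands, was present in 12.4% of all 32851 windows and in those of Nfe2l2, Srxn1, Gclm and Txnrd1. The windows of Keap1, Nqo1, Slc7a11 and Gpx2 held no core match, and sequence outside the windows was not searched. The AP-1 site TGACTCA, which can overlap an antioxidant response element, was present in 5.20% of all windows and, among the 10 genes, in that of Srxn1, at 2 places. The Atf4 composite element TGATGNAA was present in 3.97% of all windows and, among the 10 genes, in that of Slc7a11, also at 2 places. The longer core TGACTCAGC was present in 0.454% of all windows and in 0 of the 8 genes. Each line below reads 5′ to 3′ on the strand of the gene, and capitals mark the motif letters, which read as the reverse complement where the match lies on the opposite strand.
Nfe2l2, chr2:75704880-75704913, minus strand, core match beginning 240 bases before the start: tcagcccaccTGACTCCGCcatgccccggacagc
Gclm, chr3:122245408-122245446, plus strand, core match on the opposite strand 134 bases before the start: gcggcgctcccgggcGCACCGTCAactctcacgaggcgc
Txnrd1, chr10:82859099-82859137, plus strand, core match on the opposite strand 92 bases before one of its 3 RefSeq starts, within the gene: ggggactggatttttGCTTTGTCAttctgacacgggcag
Srxn1, chr2:152105407-152105500, plus strand, AP-1 matches on the opposite strand 102 and 45 bases before the start: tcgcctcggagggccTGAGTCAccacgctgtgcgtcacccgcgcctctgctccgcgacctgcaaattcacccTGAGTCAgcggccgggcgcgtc
Slc7a11, chr3:50443638-50443694, minus strand, Atf4 composite matches 66 bases before the start on the strand of the gene and 47 bases before it on the opposite strand: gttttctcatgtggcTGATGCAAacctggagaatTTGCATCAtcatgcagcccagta
The core match of Srxn1 lay 29 bases after its start and is not shown. The core was searched with the letters TGAC only, so that TGAGTCAgc at the second upstream match of Srxn1 was counted as an AP-1 site alone. These matches describe letters in a window and not sites of binding.

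**Figure D1:**
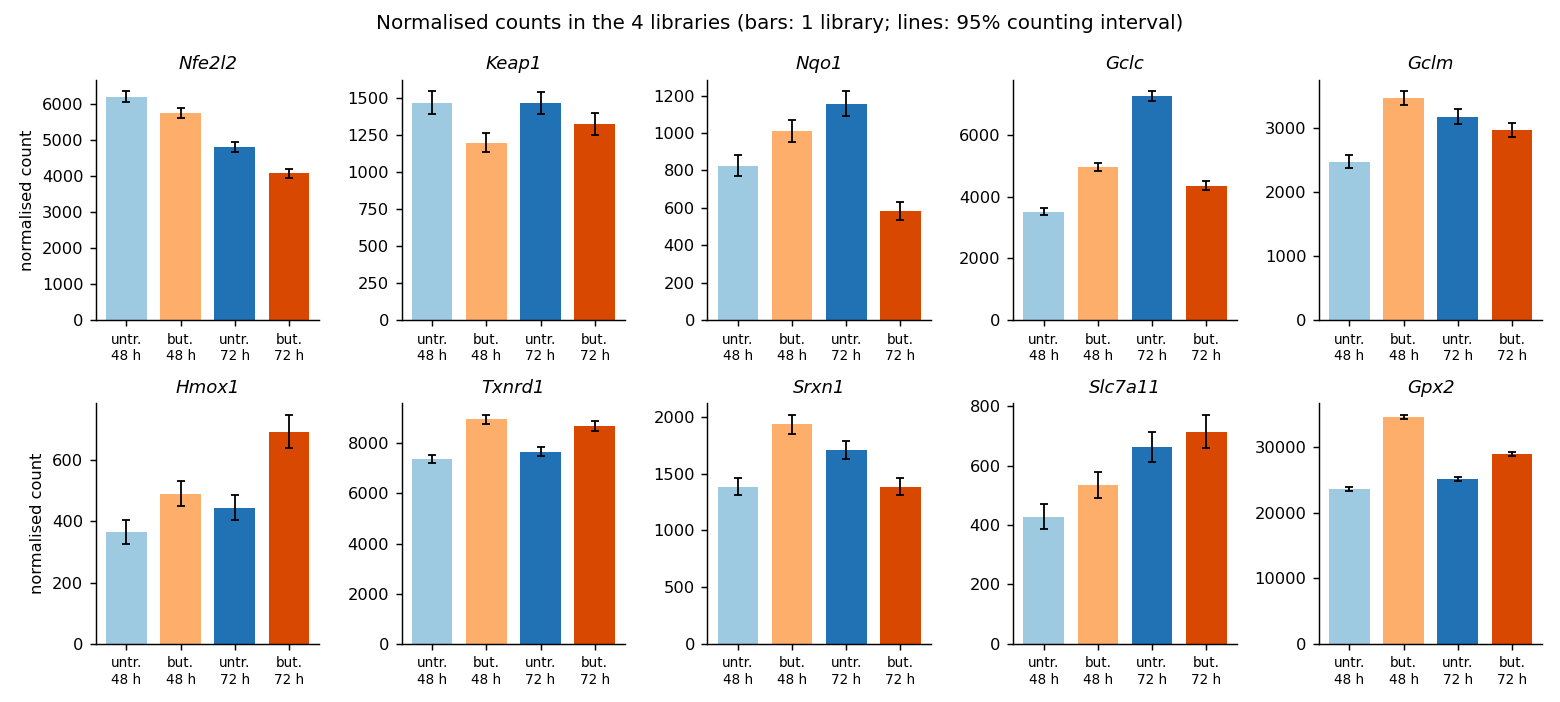
Normalised count of each of the 10 genes (y axis, linear and starting at 0, with its own scale in each panel) in the 4 libraries (x axis: untreated or butyrate, 48 h or 72 h). Bars are 1 library each and lines are 95% counting intervals, and the plot shows Gclc at its highest in untreated colonoids at 72 h (7257) and Gpx2 at its highest with butyrate at 48 h (34612).

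The first comparison asked how butyrate-treated colonoids differed from untreated ones at 48 h. All 8 antioxidant targets were higher with butyrate, by 0.28 (Txnrd1) to 0.55 (Gpx2) on the log2 scale with a median of 0.45, while Nfe2l2 and Keap1 themselves were lower. None of the 10 genes reached 1.5-fold, which 8.94% of all genes did upwards and 6.43% downwards. The counting interval lay above 0 for 8 of the 10 and below 0 for 2, against 30.6% and 35.2% of all genes. Over the 10 genes the median was 0.37, and over all genes it was −0.03.

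The comparison at 72 h gave another picture. Hmox1 was 1.5-fold higher with butyrate, and Nqo1 and Gclc were 1.5-fold lower, against 5.88% of all genes higher and 5.13% lower by that size. The interval lay above 0 for 3 of the 10 genes, below 0 for 6 and on both sides of 0 for Slc7a11, against 27.7% and 28.6% of all genes above and below. Under total count scaling Slc7a11 joined those above 0, and the intervals of Keap1 and Gclm included 0. The median of the 10 genes was −0.12 and that of the 8 targets alone 0.00, beside 0.00 for all genes. For Nqo1, Gclc, Gclm and Srxn1 the interval lay above 0 at 48 h and below 0 at 72 h, a pattern held by 5.11% of all genes. Hmox1, Txnrd1 and Gpx2 were above 0 at both times, as were 13.6% of all genes. Among the 9656 genes whose normalised counts averaged 200 or more, these shares were 5.64% and 12.9%. The members with that pattern of opposite signs were counted after their values were seen.

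**Figure D2:**
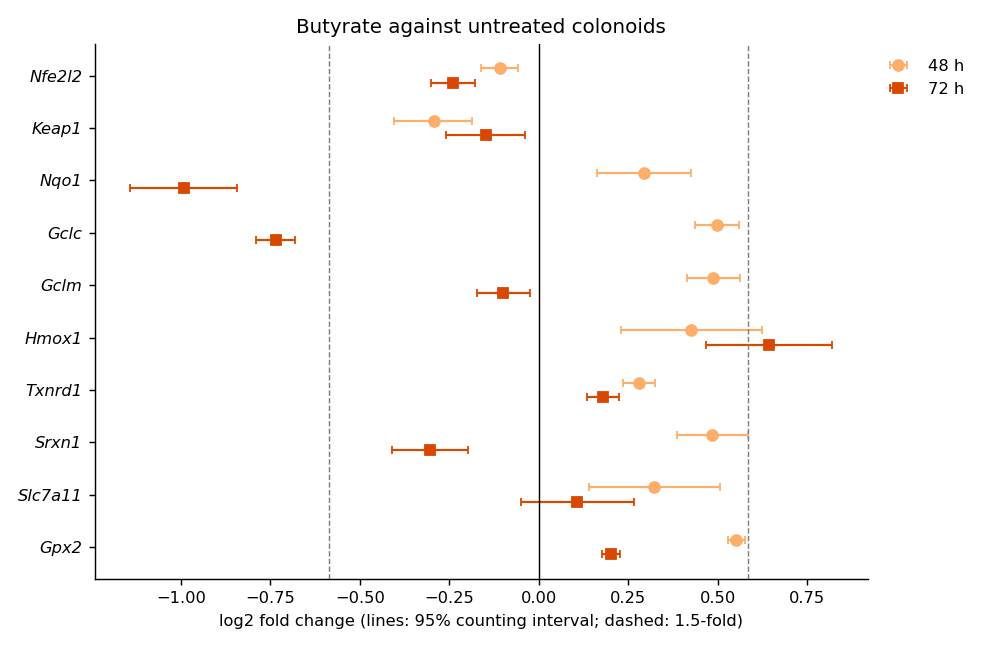
Log2 fold change of butyrate against untreated colonoids (x axis) for the 10 genes (y axis) at 48 h (circles) and 72 h (squares), with 95% counting intervals as lines and 1.5-fold as dashed lines. All 8 targets lie to the right of 0 at 48 h, and Nqo1 (−0.99) and Gclc (−0.74) lie farthest to the left at 72 h.

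Time in culture was examined within each treatment. In untreated colonoids, 8 of the 10 genes were higher at 72 h than at 48 h with intervals above 0, and Nfe2l2 was lower, against 24.6% and 23.1% of all genes. Gclc and Slc7a11 passed 1.5-fold upwards and none passed it downwards, with 3.08% and 3.32% of all genes doing so. Gclc also passed 2-fold, as did 0.755% of all genes. Under total count scaling Slc7a11 (0.56) no longer passed 1.5-fold, Gclc (0.97) no longer passed 2-fold, and the intervals of Txnrd1 and Gpx2 included 0. In butyrate-treated colonoids, 3 of the genes (Keap1, Hmox1 and Slc7a11) were higher at 72 h and 7 were lower, against 32.9% and 33.8% of all genes, although the interval of Keap1 included 0 under total count scaling and that of Txnrd1 under TMM scaling and under total counts without mitochondrial genes. Nqo1 alone of the 10 passed 1.5-fold, downwards, a size reached by 6.63% of all genes upwards and 8.44% downwards. The 4 comparisons share their libraries, so that a high count in the untreated library at 72 h enters both the butyrate comparison at 72 h and the time comparison of untreated colonoids.

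**Figure D3:**
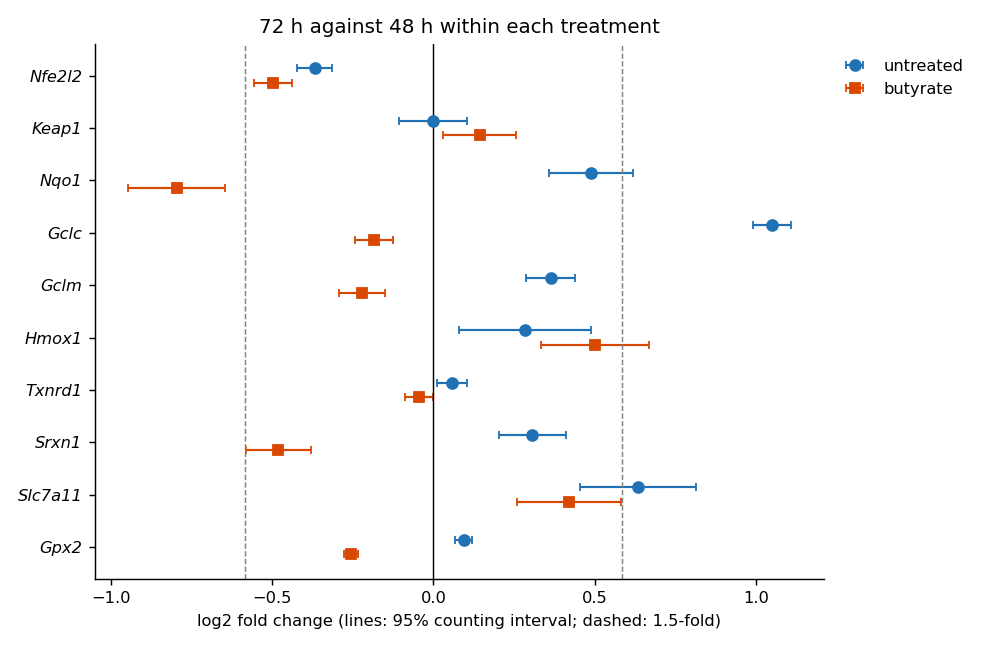
Log2 fold change of 72 h against 48 h (x axis) for the 10 genes (y axis) in untreated (circles) and butyrate-treated colonoids (squares), with 95% counting intervals as lines and 1.5-fold as dashed lines. Gclc stands at 1.05 in untreated and −0.18 in butyrate-treated colonoids, and Nqo1 at 0.49 and −0.80.

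Nfe2l2 (chromosome 2, 75675513 to 75704641, minus strand, GENCODE M21 on GRCm38) encodes Nrf2. Its normalised count was 6199 without and 5746 with butyrate at 48 h, and 4803 without and 4071 with it at 72 h. It was thus highest in the untreated library at 48 h and lowest in the butyrate library at 72 h, with none of the counting intervals of its 4 differences reaching 0. Butyrate-treated colonoids were lower by −0.11 (−0.16 to −0.06) at 48 h and by −0.24 (−0.30 to −0.18) at 72 h. Over time the difference was −0.37 (−0.42 to −0.31) in untreated and −0.50 (−0.56 to −0.44) in butyrate-treated colonoids. The transcript of the factor therefore stood on the other side of 0 from its 8 targets at 48 h. In untreated colonoids over time it did so as well, except that Txnrd1 was also below 0 under total count scaling.

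Keap1 (chromosome 9, 21229730 to 21239361, minus strand) encodes the inhibitor. In untreated colonoids its normalised counts were 1465 at 48 h and 1463 at 72 h, and with butyrate they were 1195 and 1320. Both butyrate libraries were below both untreated ones. The change with butyrate at 48 h was −0.29 (−0.40 to −0.19), and at 72 h it was −0.15 (−0.26 to −0.04), which total count scaling moved to −0.10 (−0.21 to 0.01). The ratio of Keap1 to Nfe2l2 counts within a library, which no scaling between libraries can change, was 0.236 (0.223 to 0.250) without and 0.208 (0.196 to 0.221) with butyrate at 48 h, and at 72 h 0.305 (0.287 to 0.323) without and 0.324 (0.304 to 0.346) with it. It was higher at 72 h than at 48 h in both treatments. Exons of Keap1 overlap those of the antisense gene Gm16754, which was not analysed here, and whether the counting used strand is not given in the sources used here.

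Glutathione, the main soluble thiol of cells, is made in 2 steps, and glutamate-cysteine ligase catalyses the first and limiting one. Gclc (chromosome 9, 77754535 to 77794485, plus strand) encodes its catalytic subunit. The normalised counts of Gclc were 3507 without and 4952 with butyrate at 48 h, and 7257 without and 4359 with it at 72 h. The untreated library at 72 h stood above the other 3. Butyrate-treated colonoids were 1.41-fold higher at 48 h (log2 0.50, 0.44 to 0.56) and 1.66-fold lower at 72 h (−0.74, −0.79 to −0.68). Untreated colonoids gained 2.07-fold from 48 h to 72 h (1.05, 0.99 to 1.11), whereas butyrate-treated ones differed by −0.18 (−0.24 to −0.13).

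Gclm (chromosome 3, 122245557 to 122270732, plus strand) encodes the modifier subunit, which raises the affinity of the enzyme for glutamate. Its normalised counts were 2468 and 3459 at 48 h, and 3175 and 2965 at 72 h, without and with butyrate. The lowest library was the untreated one at 48 h, and the highest was the butyrate one at the same time. The change with butyrate was 0.49 (0.41 to 0.56) at 48 h, nearly that of Gclc, and −0.10 (−0.17 to −0.03) at 72 h, where total count scaling moved it to −0.05 (−0.12 to 0.03). Over time Gclm differed by 0.36 (0.29 to 0.44) in untreated and −0.22 (−0.29 to −0.15) in butyrate-treated colonoids. Its exons overlap Gm6061, which had 121 to 207 counts, and Gm17494, which was not analysed here.

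The 2 subunits of the ligase thus kept a near constant proportion in 3 of the libraries. Gclc to Gclm counts stood at 1.42 without and 1.43 with butyrate at 48 h, and at 1.47 with butyrate at 72 h, and these intervals together spanned 1.35 to 1.54. In untreated colonoids at 72 h the ratio was 2.29 (2.19 to 2.38), an interval that did not overlap the other 3. This ratio was examined after the values were seen.

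**Figure D4:**
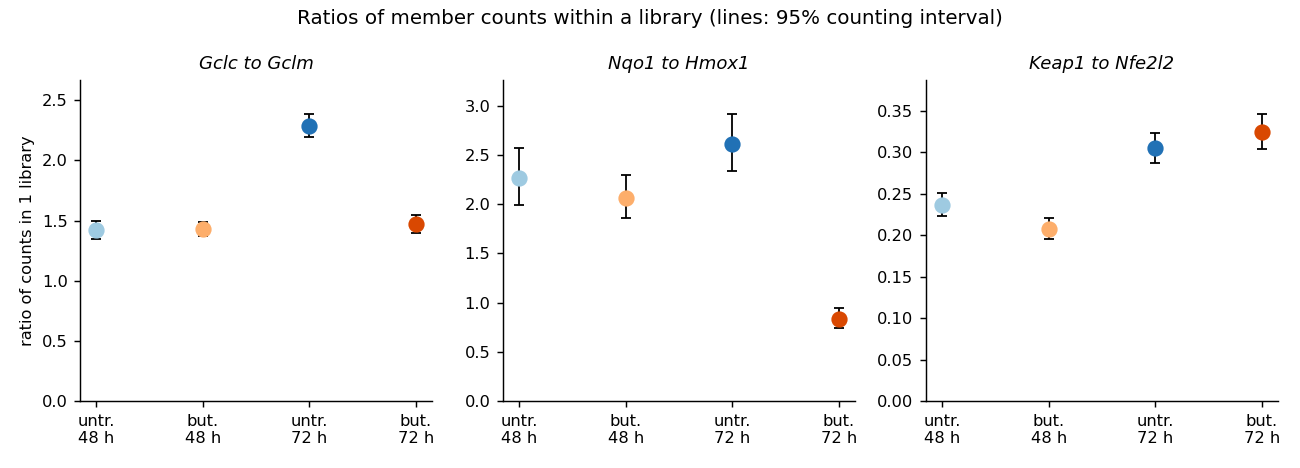
Ratio of the counts of 2 genes within a library (y axis, starting at 0) for Gclc to Gclm, Nqo1 to Hmox1 and Keap1 to Nfe2l2 in the 4 libraries (x axis), with 95% counting intervals as lines. Gclc to Gclm is apart in untreated colonoids at 72 h (2.29), and Nqo1 to Hmox1 is lowest with butyrate at 72 h (0.839).

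Slc7a11 (chromosome 3, 49892526 to 50443614, minus strand) is the light chain of the cystine/glutamate exchanger that supplies cysteine for glutathione, and it is also a target of the amino acid response factor Atf4. It had 427 and 534 normalised counts at 48 h, and 664 and 715 at 72 h, without and with butyrate. Both libraries at 72 h were above both at 48 h. The untreated colonoids were 1.55-fold higher at 72 h than at 48 h (0.63, 0.46 to 0.81), and the butyrate-treated ones differed by 0.42 (0.26 to 0.58). With butyrate it was higher by 0.32 (0.14 to 0.51) at 48 h. At 72 h the value was 0.11 (−0.05 to 0.26), a difference not detectable at this depth under the scaling used, and under total count scaling it was 0.16 (0.00 to 0.32).

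In the thioredoxin arm, Txnrd1 (chromosome 10, 82833951 to 82897712, plus strand) encodes the cytosolic thioredoxin reductase, which passes electrons from NADPH to thioredoxin. Its normalised counts were 7377 and 8959 at 48 h and 7676 and 8688 at 72 h, again without and with butyrate. Both butyrate libraries were above both untreated ones. With butyrate it was higher by 0.28 (0.24 to 0.32) at the earlier time and by 0.18 (0.13 to 0.22) at the later one. Over time it differed by 0.06 (0.01 to 0.10) in untreated colonoids, a sign that turned to −0.02 (−0.07 to 0.03) under total count scaling, and by −0.04 (−0.09 to −0.00) in butyrate-treated ones. Counts were summed over the gene, so transcripts from its 3 RefSeq starts were not separated.

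Srxn1 (chromosome 2, 152105516 to 152111376, plus strand) encodes sulfiredoxin, which reduces overoxidised peroxiredoxins. It stood at 1382 and 1933 normalised counts at 48 h, and at 1709 and 1385 at 72 h. The untreated library at 48 h and the butyrate library at 72 h were nearly level, and the other two were higher. With butyrate it was 1.40-fold higher at 48 h (0.48, 0.38 to 0.58) and 1.23-fold lower at 72 h (−0.30, −0.41 to −0.20). From 48 h to 72 h it differed by 0.31 (0.20 to 0.41) in untreated and −0.48 (−0.58 to −0.38) in butyrate-treated colonoids. The ratio of Txnrd1 to Srxn1 counts was 5.34 (5.03 to 5.66) and 4.63 (4.42 to 4.86) without and with butyrate at 48 h. At 72 h it was 4.49 (4.26 to 4.73) and 6.28 (5.92 to 6.66), so that it was highest in the butyrate library at the later time.

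Gpx2 (chromosome 12, 76792333 to 76795554, minus strand) encodes the gastrointestinal glutathione peroxidase, a selenoprotein of crypt epithelium. It had 23621 and 34612 normalised counts at 48 h, and 25199 and 28985 at 72 h, without and with butyrate. Both butyrate libraries were above both untreated ones. The difference was the largest of the 10 at 48 h, 1.47-fold (0.55, 0.53 to 0.57), and was 1.15-fold at 72 h (0.20, 0.18 to 0.23). Over time it was 0.09 (0.07 to 0.12) in untreated colonoids, or 0.02 (−0.01 to 0.04) under total count scaling, and −0.26 (−0.28 to −0.23) in butyrate-treated ones. The pseudogene copy Gpx2-ps1 had 3 to 6 counts in each library.

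Nqo1 (chromosome 8, 107388225 to 107403206, minus strand) encodes a quinone reductase that is a common readout of Nrf2. It had 823 normalised counts without and 1009 with butyrate at 48 h, and 1155 without and 581 with it at 72 h. The untreated library at 72 h was the highest and the butyrate library of the same time the lowest. With butyrate it was 1.23-fold higher at 48 h (0.29, 0.16 to 0.43) and 1.99-fold lower at 72 h (−0.99, −1.14 to −0.84), the largest difference with butyrate among the 10 genes at either time. Over time it was higher by 0.49 (0.36 to 0.62) in untreated and 1.74-fold lower in butyrate-treated colonoids (−0.80, −0.95 to −0.65).

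Hmox1 (chromosome 8, 75093621 to 75100589, plus strand) encodes haem oxygenase 1, which breaks down haem and is controlled by both Nrf2 and the repressor Bach1. Its normalised counts were 364 and 489 at 48 h, and 443 and 692 at 72 h, without and with butyrate. Both butyrate libraries were above both untreated ones, and at 72 h it was the sole gene of the 10 to be 1.5-fold higher, at 1.56-fold (0.64, 0.47 to 0.82). At 48 h it was 1.34-fold higher (0.42, 0.23 to 0.62). It was also higher at 72 h than at 48 h in both treatments, by 0.28 (0.08 to 0.49) and 0.50 (0.33 to 0.67). Nqo1 and Hmox1 therefore parted at 72 h. The ratio of their counts was 2.26 (1.99 to 2.57) without and 2.06 (1.86 to 2.29) with butyrate at 48 h. At 72 h it was 2.61 (2.34 to 2.91) in untreated colonoids and 0.839 (0.747 to 0.943) with butyrate, the lowest of the 4.

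The butyrate difference at 72 h minus that at 48 h put these genes in order. It was −1.28 (−1.48 to −1.09) for Nqo1, −1.23 (−1.32 to −1.15) for Gclc, −0.79 (−0.93 to −0.64) for Srxn1 and −0.59 (−0.69 to −0.48) for Gclm. It was nearer 0 for Gpx2 (−0.35), Slc7a11 (−0.21), Nfe2l2 (−0.13) and Txnrd1 (−0.10), and above 0 for Keap1 (0.15) and Hmox1 (0.22). The counting intervals of Slc7a11, Keap1 and Hmox1 included 0. Under total count scaling those of Keap1 (0.04 to 0.35) and Hmox1 (0.00 to 0.52) lay above 0 and that of Txnrd1 (−0.12 to 0.01) included 0, and without mitochondrial genes in the totals that of Keap1 (0.02 to 0.33) also lay above 0. No library was replicated, so none of these differences could be tested.

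Levels between genes were compared per kb of exon length, as normalised counts per kb of the union of exons. Gpx2 was first in all 4 libraries, with 7331 to 10742, and Slc7a11 was last, with 30.7 to 51.4. Gclc moved from the fourth place in untreated colonoids at 48 h (931) to the second at 72 h (1927), and Nqo1 from the fifth (744) in untreated colonoids at 72 h to the eighth (374) with butyrate. Hmox1 was ninth in both untreated libraries (208 and 253) and seventh with butyrate at 72 h (395). Neighbours in this order whose counting intervals did not separate them were Nqo1 and Srxn1 in both libraries at 48 h, Hmox1 and Keap1 with butyrate at 48 h, and Srxn1 and Gclm, and Hmox1 and Nqo1, with butyrate at 72 h. Per kb of the longest transcript instead, Txnrd1 stood above Nfe2l2 in 3 libraries rather than 1, Keap1 stood above Hmox1 and Txnrd1 above Gclc with butyrate at 48 h, and Gclm stood above Srxn1 and Nfe2l2 above Gclc with butyrate at 72 h.

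Proteins that work with or on Nrf2 were described from a list of 15 genes, 14 of which averaged 50 normalised counts or more. None of the 14 was 1.5-fold different with butyrate at either time, beside 8.94% of all genes higher and 6.43% lower at 48 h and 5.88% and 5.13% at 72 h. The median was −0.12 at 48 h and −0.05 at 72 h. The interval lay below 0 at both times for 5 of them, beside 15.5% of all genes: the small Maf partners Maff (−0.46 and −0.35) and Mafk (−0.30 and −0.51), the repressor Bach1 (−0.45 and −0.15), the related factor Nfe2l1 (−0.14 and −0.16) and the ligase subunit Btrc (−0.36 and −0.21). With total counts as scaling, with or without mitochondrial genes, the interval of Btrc at 72 h included 0 and the count was 4. It lay above 0 at both times for Nfe2l3 (0.49 and 0.44) and the Cul3 partner Rbx1 (0.18 and 0.31), beside 13.6% of all genes. The scaffold Cul3 was at −0.10 (−0.17 to −0.02) and −0.05 (−0.12 to 0.02), and Sqstm1, the autophagy receptor that binds Keap1, at 0.07 (0.01 to 0.13) and −0.12 (−0.19 to −0.06). The interval of Sqstm1 at 48 h included 0 under TMM scaling and under total counts without mitochondrial genes. Over time Mafk differed most among these 14 genes, higher at 72 h by 0.95 in untreated and 0.74 in butyrate-treated colonoids. Bach1, the repressor of Hmox1, had normalised counts of 1660 and 1217 at 48 h and 2147 and 1928 at 72 h, so that it was lower with butyrate at both times at which Hmox1 was higher, yet higher at 72 h than at 48 h, as Hmox1 was.

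Of 7 wider lists of redox genes, that of quinone, carbonyl and drug detoxification holds many known Nrf2 targets. Of its 17 genes averaging 50 normalised counts or more, 16 had intervals above 0 with butyrate at 48 h and 10 had intervals below 0 at 72 h, beside 30.6% and 28.6% of all genes. The interval lay above 0 at both times for 5 of the 17 (Ephx1, Ptgr1, Abcc1, Gsta4 and Gstp1), beside 13.6% of all genes. The medians of the list were 0.49 and −0.36, and among genes averaging 200 or more they were 0.45 and −0.23. At 1.5-fold, 6 were higher at 48 h and 4 were lower at 72 h, beside 8.94% and 5.13% of all genes. The pattern of opposite signs of Nqo1, Gclc, Gclm and Srxn1 was held by 9 of the 17, beside 5.11% of all genes. With either form of total count scaling it was held by 8, and 9 had intervals below 0 at 72 h. Gstp1, a glutathione transferase, differed most, at 1.41 (1.36 to 1.45) and 0.13 (0.07 to 0.18). Named after their values were seen, the carbonyl reductase Cbr3 stood at 0.78 and −0.84, and Ugdh, which makes UDP-glucuronic acid, at 0.35 and −0.69.

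The other lists were described at the same level. The glutathione system (12 genes) had medians of 0.11 and −0.06, and Ggct, a gamma-glutamylcyclotransferase, had the largest difference of these 12, 1.16 (0.87 to 1.47) at 48 h and 0.41 (0.08 to 0.75) at 72 h. The thioredoxin and peroxiredoxin system (15 genes) had medians of −0.01 at both times, of which that at 48 h was 0.09 among genes averaging 200 or more. It held Prdx6, a peroxiredoxin that uses glutathione, which among genes of the 7 lists averaging 50 normalised counts or more was the sole one to be 1.5-fold higher at both times, as 3.48% of all genes were, at 1.30 (1.25 to 1.34) and 0.77 (0.72 to 0.81). It had 5468 normalised counts without and 13436 with butyrate at 48 h, and 5704 without and 9697 with it at 72 h. Genes of NADPH supply (7 genes) had medians of 0.08 and −0.06, with malic enzyme Me1 at 0.81 and −0.30.

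Haem and iron genes (10 genes) had medians of 0.15 and 0.22, both above 0 as Hmox1 was. The iron importer Slc11a2 showed no detectable difference at 48 h (0.01, −0.04 to 0.05) and one of 1.32 (1.26 to 1.38) at 72 h, where its normalised count was 3266 in untreated colonoids and between 8112 and 8161 in the other 3 libraries. Superoxide dismutases and catalase (4 genes) had medians of 0.20 and −0.27, with catalase, Cat, at 0.21 and −0.52. Targets of Atf4 (12 genes), read beside Slc7a11, had medians of 0.03 and 0.09, or 0.13 and 0.20 among genes averaging 200 or more. The stress factor Ddit3 stood at −0.76 (−1.11 to −0.43) and −0.33 (−0.65 to −0.02). Under total count scaling its interval at 72 h included 0.

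**Figure D5:**
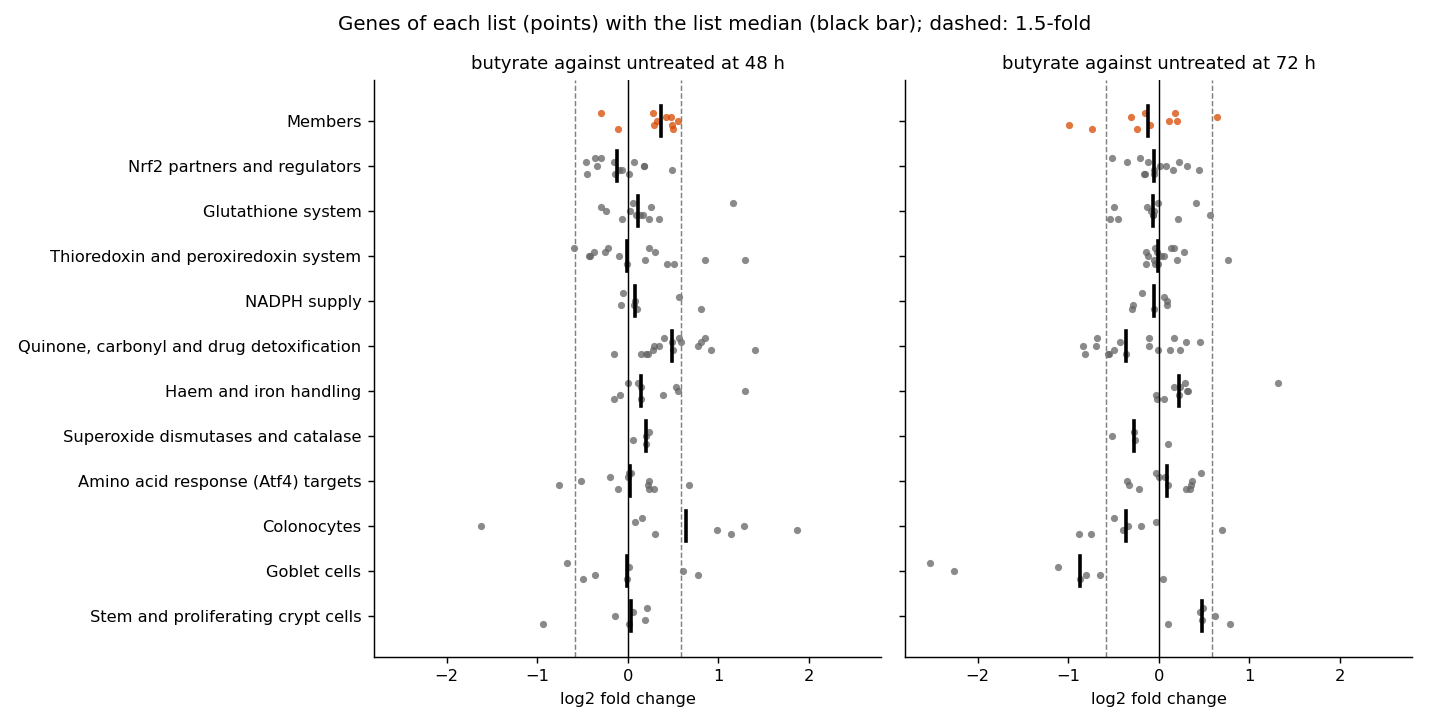
Log2 fold change with butyrate at 48 h (left) and 72 h (right) on the x axis for genes of each list (y axis), with 1 point for each gene, the list median as a black bar and 1.5-fold as dashed lines. The median of the 10 genes stands at 0.37 and −0.12, that of the detoxification list at 0.49 and −0.36 and that of the colonocyte markers at 0.65 and −0.37.

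Markers of colonic cell types differed between the same libraries. With butyrate the median of the 8 colonocyte markers was 0.65 at 48 h, and at 72 h it was −0.37. Their summed normalised counts were 32016 without and 62953 with butyrate at 48 h, and 48957 without and 30056 with it at 72 h. Most of each sum was Car1, with 20390, 44920, 34635 and 18850 in the same order. At 48 h Saa1 (−1.61) alone had an interval below 0, beside 35.2% of all genes. At 72 h Ceacam20 (0.70) alone had an interval above 0, beside 27.7%. For 5 of the 8 colonocyte markers the interval lay above 0 at 48 h and below 0 at 72 h, beside 5.11% of all genes. This is the pattern of Nqo1, Gclc, Gclm and Srxn1. It was held by 4 of 8 epithelial, 2 of 7 goblet and 0 of 6 stem and proliferating crypt markers. Among the redox lists it was held by 2 of 12 glutathione, 2 of 15 thioredoxin and 1 of 7 NADPH genes. The numbers were 0 of 10 for haem and iron, 2 of 4 for dismutases and catalase, and 0 of 12 for Atf4 targets. The 7 goblet cell markers had medians of −0.01 and −0.87, and summed to 113153 and 91656 at 48 h and 165950 and 89924 at 72 h. Most of each sum was Muc2, with 73062, 52053, 119430 and 65482. The sum was highest in the untreated library at 72 h, in which Gclc and Nqo1 were also highest. Spink4 was lower there (2922) than in untreated colonoids at 48 h (3810). At 48 h Tff3 (0.77) and Clca1 (0.61) were higher with butyrate. Intervals lay above 0 for 2 of the 7 at that time and below 0 for 3, beside 30.6% and 35.2% of all genes. The 6 markers of stem and proliferating crypt cells at that level had medians of 0.03 and 0.48. The immune marker sum was highest with butyrate at 48 h, where Cd68, a lysosomal protein, had 1309 counts against 128 in untreated colonoids. Cd14 went the other way, with 221 counts against 534 at 48 h and 287 against 579 at 72 h. The leukocyte marker Ptprc had 5 to 15 counts in each library. The part of these cell type markers in the differences of the 10 genes was not tested.

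For the 3 genes with the widest range over the libraries, the most similar profiles among the 11652 genes were found by Euclidean distance of centred log2 normalised counts over the 4 libraries. With 4 points each, these are descriptions. Closest to Gclc were Sprr1a (0.126), Cxxc4 (0.151) and Mylk (0.167), and Sprr1a differed by 0.53 and −0.90 with butyrate at 48 h and 72 h. Closest to Nqo1 were Selenop (0.0638), which encodes a selenium transport protein, the brush border myosin Myo1a (0.0939) and Btnl1 (0.114), and Myo1a differed by 0.35 and −0.93. Closest to Hmox1 were Mns1 (0.0569), Nav1 (0.0865) and Klhl23 (0.0993), and Mns1 differed by 0.45 and 0.72. Cxxc4 (35 to 69 counts) and Klhl23 (55 to 100 counts) had few counts, so that counting error bears on their distances.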

How the data were processed

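Poly-A RNA of 4 colonoid cultures, 1 library for each condition, was sequenced by the authors from TruSeq libraries. The deposited counts are whole numbers per gene name: per the study's methods and processing notes the authors pseudoaligned reads with kallisto 0.44.0 (build GRCm38.p6) and summed transcripts to genes with tximport, so they are rounded estimates without filter or normalisation. Of the gene names, 26 had been turned into dates and were not named. Size factors came from DESeq2 1.42.0 (R 4.3.3) over the 13979 genes that passed the study's filter (above 10 counts in 2 or more libraries), and TMM factors from edgeR 4.0.16. Fold changes had a pseudocount of 1, and exact Clopper-Pearson 95% intervals were taken on pairs of counts. Both were computed with scipy 1.17.1, pandas 2.3.3 and numpy 2.4.6 under Python 3.11.15, and plotted with matplotlib 3.10.9. The computation was checked on simulated Poisson counts, which share the assumption behind the intervals and so do not test it. Library totals were 20790225 to 24207840. Without molecular identifiers a read is not an independent molecule. The intervals treat reads as independent and can be too narrow even for counting error. They cover no other error, since each condition had 1 library. Exon lengths and positions came from GENCODE M21.

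The 10 genes and all lists were chosen with earlier results of these data known. All 10 were named in every comparison. Partners and regulators averaging 50 normalised counts or more could be named. From each other list of redox genes, genes 1.5-fold different the same way at both times were named, or else the gene with the largest change. For the 3 genes of widest range, the 3 closest profiles were named. Outside this rule, Cbr3, Ugdh and the detoxification genes above 0 at both times were named after their values were seen. The rule did not cover cell type markers, and those named were picked after their values were seen. Alternatives were TMM, total count and total count without mitochondrial genes as scaling, a pseudocount of 5, thinning to 20790225 counts (100 draws), other count minimums, the longest transcript and a longer motif. The study's single-cell, imaging and other experiments were not analysed here.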

Additional observations from a re-analysis of the deposited data

Results flagged for a closer look

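For 4 of the 10 genes the difference between butyrate-treated and untreated colonoids changed sign from 48 h to 72 h, and both counting intervals lay away from 0, being above 0 at 48 h and below 0 at 72 h as for 5.11% of all genes. The difference at 72 h minus that at 48 h was −1.28 for Nqo1, −1.23 for Gclc, −0.79 for Srxn1 and −0.59 for Gclm on the log2 scale. With 1 library for each condition, these differences were not tested. For Gclm the interval at 72 h included 0 under total count scaling (−0.12 to 0.03), whereas for Nqo1, Gclc and Srxn1 it lay on the same side of 0 under each scaling tried.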

How the results depend on the processing

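No paired analysis was possible because the groups share fewer than 2 replicate numbers. Of 200 recomputed fold changes of the 10 genes, 192 moved by less than their counting interval, 7 moved by more and 1 turned its sign: Txnrd1 in untreated colonoids over time, from 0.0574 to −0.0207 under total count scaling. Under the same scaling 1 gene (Gclc, at 0.97) instead of 2 passed 1.5-fold in untreated colonoids over time, and none of the 10 passed 2-fold. That scaling shifted all fold changes by 0.05 at 72 h and by −0.08 in untreated colonoids over time. It also brought the intervals of Keap1 at 72 h (−0.21 to 0.01) and over time with butyrate (−0.00 to 0.23), and of Gpx2 in untreated colonoids over time (−0.01 to 0.04), to include 0. The interval of Txnrd1 over time with butyrate included 0 under TMM scaling and under total counts without mitochondrial genes, and in untreated colonoids under the latter. Intervals recomputed under each scaling, also for the lists and the differences between times, and ratios within a library, were chosen after seeing the data. The numbers of genes past 1.5-fold followed the count minimum: with butyrate at 48 h 1042 were higher and 749 lower, 1837 and 1244 with the study's filter, and 516 and 494 at a mean of at least 200. At 72 h these were 685 and 598, 1328 and 1192, and 273 and 342. In untreated colonoids over time they were 359 and 387, 953 and 723, and 173 and 168, and past 2-fold upwards 88, 372 and 34. In butyrate-treated colonoids over time they were 772 and 984, and 1351 and 1663 with the study's filter, and 519 were lower at a mean of at least 200. With the longer motif core, 0 genes had a match against 4.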
